A study of Homo sapiens with 40 samples.

Results

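The genes described here make cholesterol, its isoprenoid precursors and fatty acids. Of the 8 genes in the set, 6 were measured, by 15 of the 15246 probes on the array. IDI1, FDPS and FASN had 1 probe each, SREBF2 had 2, SC5D had 4 and SCD had 6. A probe was taken as a member when its gene symbol in the platform annotation was that of a set member, and no measured value was used to choose it. HMGCS1 and FDFT1 had no such probe and were not analysed here. All 40 arrays of the series were used.

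Cholesterol is built from acetyl-CoA through the mevalonate pathway, whose isoprenoid intermediates are joined to squalene, closed to a sterol and then trimmed and rearranged. The isoprenoids branch off to protein prenylation, dolichol and ubiquinone. Fatty acids start from the same acetyl-CoA, are assembled by fatty acid synthase and are then desaturated and elongated into membrane lipids. SREBP-2, encoded by SREBF2, is a membrane-bound transcription factor that is cleaved and enters the nucleus when the sterol content of the endoplasmic reticulum is low, where it turns on the sterol genes and the low density lipoprotein receptor. The related SREBP-1 acts mainly on fatty acid genes. Plasma cells and myeloma cells hold a large endoplasmic reticulum for immunoglobulin secretion, and its membranes draw on both pathways.

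The study lowered caspase-10 with an shRNA in human cell lines of 2 kinds. Multiple myeloma was represented by SKMM1, KMS12 and H929, and the controls, OCI-Ly19 and OCI-Ly7, came from B-cell lymphoma. The cells had been transduced with retroviral vectors for a doxycycline-inducible hairpin and selected with puromycin; the hairpin was directed against CASP10 except in the shCtrl cells named below. On most arrays, cells given doxycycline at 20 ng/ml (Cy5) were set against uninduced cells of the same line, hairpin and day (Cy3), so that doxycycline itself was present in only 1 channel. All 5 lines were studied with the hairpin shCasp10-2: each lymphoma line gave 2 arrays, KMS12 gave 4, H929 gave 8 from 2 repeats, and 3 repeats of SKMM1 gave 12. A second hairpin, shCasp10-3, was studied on 4 arrays of KMS12 and 4 of H929. On 4 further SKMM1 arrays, cells with shCasp10-2 were set against cells with a control hairpin, shCtrl, both under doxycycline. Arrays were made after 24 to 120 hours of induction, here called days 1 to 5. The SKMM1 arrays of day 5 are labelled repeats 1 and 2. By their runs of database numbers they were placed in repeats 2 and 3, and their values are given there. A course is the set of days of 1 line, 1 hairpin and 1 repeat, and the 8 myeloma courses against uninduced cells are the replicates. Whether the transduced cells were clones or pools is not given in the sources used here.

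Promoter sequences of the RefSeq annotation of GRCh38.p14 were searched for letters linked to sterol control, in the 250 bases before each annotated start. They are shown because the set is defined by a shared pathway and a shared regulator, and 5 of the 6 measured genes had such a window (SC5D 2, IDI1 3, SREBF2, FDPS and SCD 1 each); FASN had none. A core of the sterol regulatory element, TCACNCCAC on either strand, was found in SREBF2 alone among the 5, from 133 to 125 bases before the start. It occurred in 0.883% of the 35116 windows of all genes. CCAAT or its reverse ATTGG, the letters bound by NF-Y, a factor that binds beside SREBP on many sterol genes, was in at least 1 window of each of the 5 genes and in 32.0% of all windows (37.0% of genes). The Sp1 letters GGGCGG on either strand were also in all 5, and in 42.6% of windows. The E box letters CACGTG were in SC5D alone among the 5, in its 2 windows, which overlap, and in 6.34% of all windows. In the SC5D window printed below they run from 131 to 126 bases before the start and are not marked. A match of letters is a description, not a binding site, and the choice of windows to print followed the search. Capitals mark the sterol element core and CCAAT or ATTGG in 3 windows, each read on the strand of its gene. SREBF2 is at chr22:41832855-41833104 on the plus strand, SC5D at chr11:121292521-121292770 on the plus strand, and IDI1, the third of its 3 listed windows, at chr10:1049120-1049369 on the minus strand.
SREBF2: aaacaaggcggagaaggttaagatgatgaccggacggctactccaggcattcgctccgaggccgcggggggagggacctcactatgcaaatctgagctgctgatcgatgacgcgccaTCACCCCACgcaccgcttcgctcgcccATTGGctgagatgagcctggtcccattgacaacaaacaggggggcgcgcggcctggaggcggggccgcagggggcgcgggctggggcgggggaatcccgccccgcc
SC5D: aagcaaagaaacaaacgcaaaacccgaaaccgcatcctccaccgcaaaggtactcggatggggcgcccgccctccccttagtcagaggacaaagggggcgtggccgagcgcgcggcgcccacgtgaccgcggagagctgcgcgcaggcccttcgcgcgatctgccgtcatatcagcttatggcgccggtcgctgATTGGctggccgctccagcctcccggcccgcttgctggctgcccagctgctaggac
IDI1: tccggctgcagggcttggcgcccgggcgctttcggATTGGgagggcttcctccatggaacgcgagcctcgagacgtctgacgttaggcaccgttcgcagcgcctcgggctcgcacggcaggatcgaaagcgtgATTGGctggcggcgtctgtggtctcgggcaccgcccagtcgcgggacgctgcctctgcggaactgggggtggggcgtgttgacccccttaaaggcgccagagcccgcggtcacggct
SREBF2 thus carried the sterol element core upstream of an ATTGG at 106 bases before its start, SC5D a single ATTGG 56 bases before its start, and the IDI1 window an ATTGG at 215 and at 117 bases.

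The base of the deposited log ratios is not stated and was taken to be 2. The arrays differed widely in their spread, and this touches every value below. On 12 of the 40 arrays over 10% of probes had a log ratio beyond 3 in size; these are called wide arrays here, and they include all 4 arrays placed in SKMM1 repeat 2. The array medians ran from -2.15 to 0.36 over all arrays and from -0.11 to 0.30 over the 28 others. Arrays of SKMM1 repeats 2 and 3 correlated down to r = -0.52 over all probes although the labels give both the same dyes, and the deposited direction was kept. CASP10 was below 0 on 29 of 32 myeloma arrays, between -5.60 and 0.35. The lowest value was from the H929 array of day 1, which was wide and had a median of -2.15. Its means of days 2 to 4 were below 0 in 7 of 8 myeloma courses, and 12.8% of features were so in at least 7. The mean over these courses was -0.63, and -0.25 over 7 courses without the wide arrays. CASP10 was above 0 on both arrays of the line labelled OCI-Ly7, with 2.04 on day 3. Log ratios carry no level, so whether the lines express plasma cell markers cannot be read from them. The mean over the 8 plasma cell markers stayed between -0.22 and 0.06 in the 8 myeloma courses.

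In myeloma cells the 6 genes did not move as a block. Over the 8 course means of days 2 to 4, FASN, SREBF2 and FDPS were each below 0 in 6 of 8 courses, SC5D was above 0 in 6 of 8, and IDI1 and SCD were split 4 and 4. The mean log2 ratio, with the 3 lines weighted equally, was -0.37 for FASN (SE 0.17), -0.24 for SREBF2 (SE 0.12) and -0.52 for FDPS (SE 0.65). It was -0.11 for SCD (SE 0.11), 0.060 for IDI1 (SE 0.21) and 0.15 for SC5D (SE 0.25). Most features were below 0 in the same fit: the median over all 9681 was -0.27, and 18.7% were above 0. Without the wide arrays that median was 0.017, with 53.1% above 0. The limma fit of all arrays called 0 of the 6 after Benjamini-Hochberg adjustment, against 0.0% of the 9681 features, and 0 of the 6 at an unadjusted p under 0.05, against 4.82% of features (467). With the wide arrays left out and single arrays fitted with the course as a random block, SC5D was called at 0.26 (SE 0.066, adjusted p = 0.031), against 5.13% of features called. SREBF2 then stood at -0.25 (SE 0.079, adjusted p = 0.073) and FASN at -0.41 (SE 0.15, adjusted p = 0.11). The days of a course may share a culture, so a fit of single arrays rests on the block to hold their correlation. On course means without the wide arrays none of the 6 was called: SC5D was 0.28 (SE 0.083, adjusted p = 0.27), FASN -0.43 (SE 0.17, adjusted p = 0.32) and SREBF2 -0.23 (SE 0.099, adjusted p = 0.34).

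**Figure D1:**
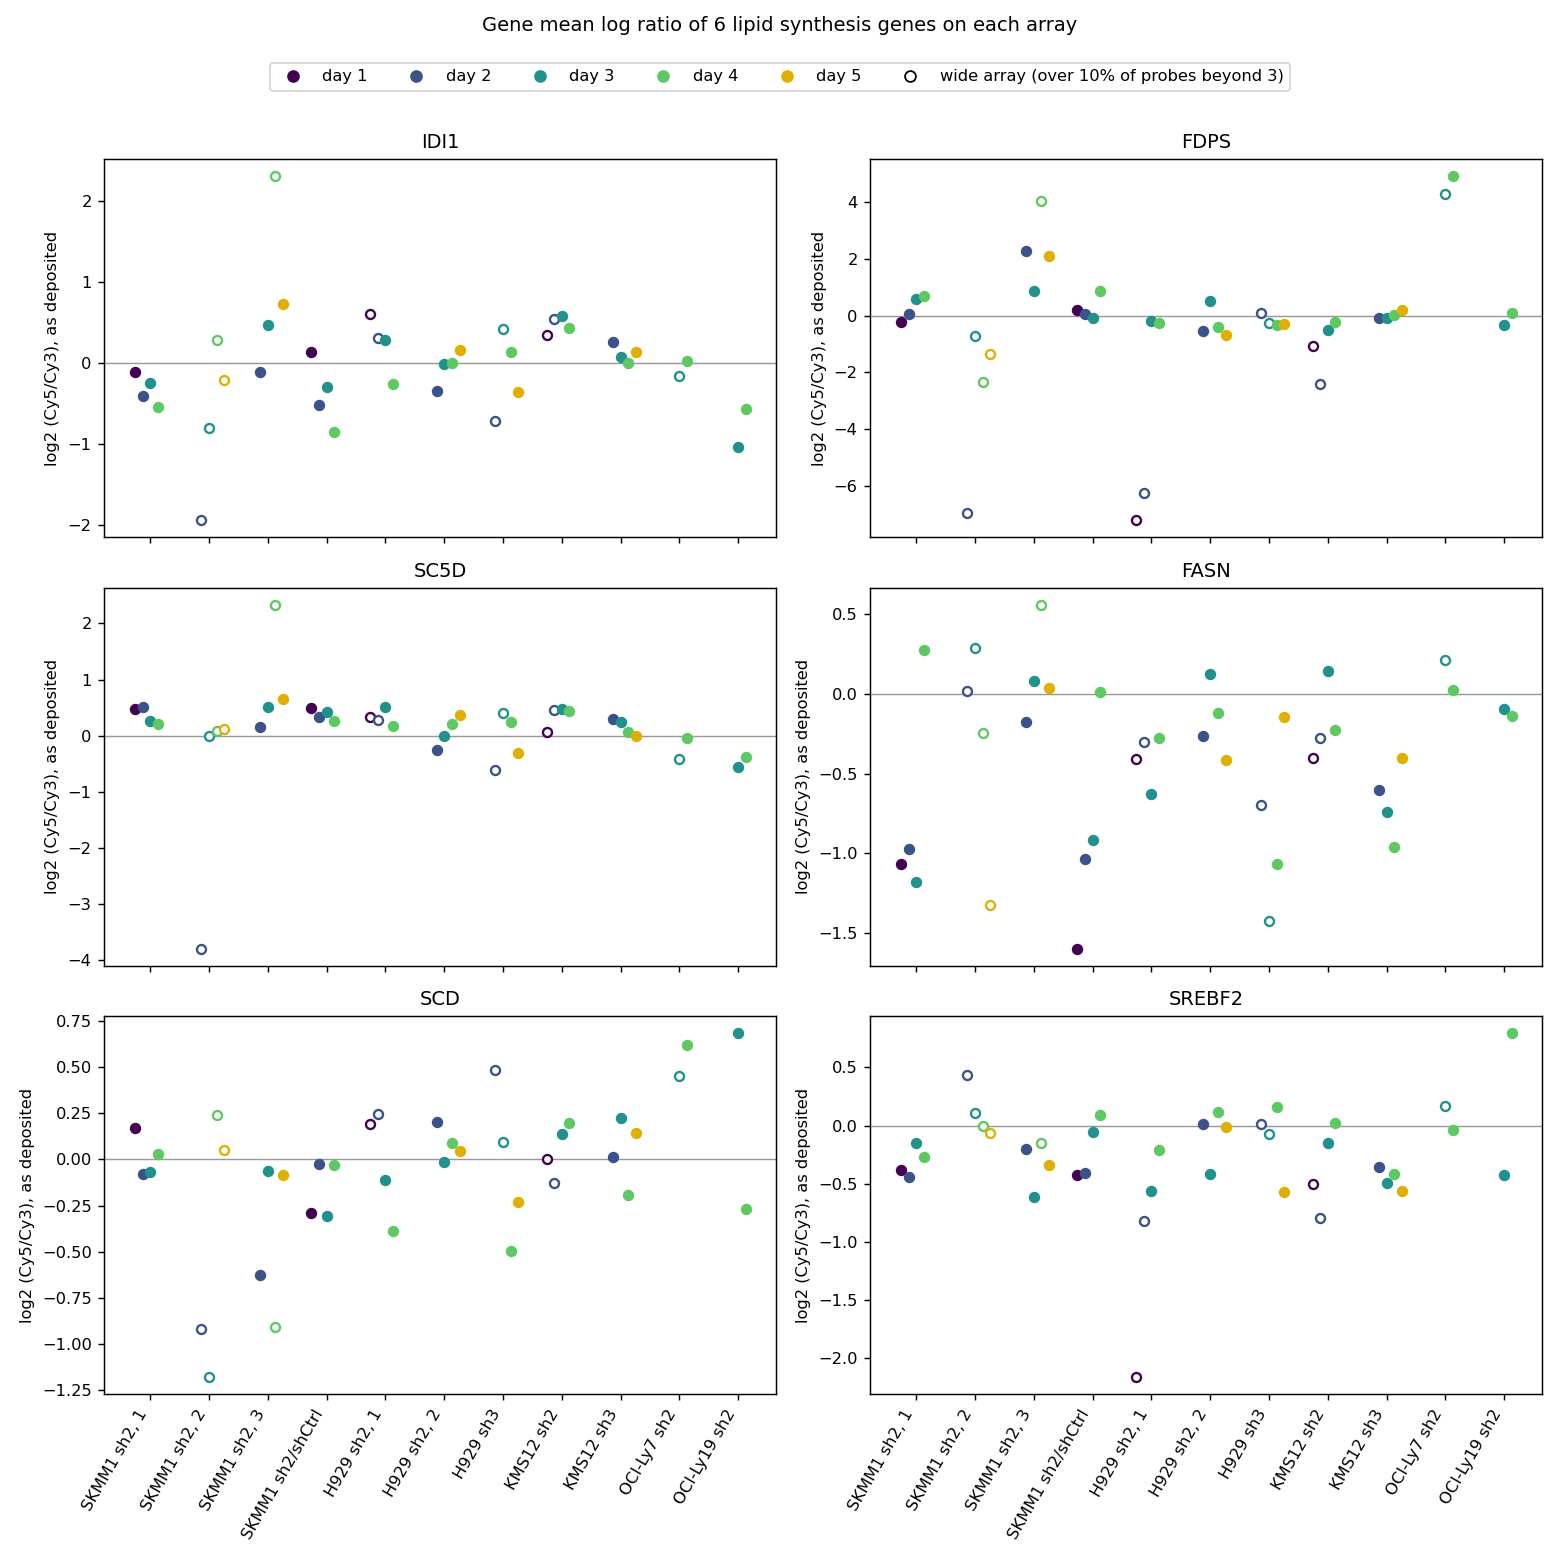
Gene mean log2 ratio (y axis) of the 6 measured genes on each of the 40 arrays, grouped by course along the x axis, with sh2 and sh3 for shCasp10-2 and shCasp10-3. Colours give the day and open circles are wide arrays; the y axes differ between panels, and the extreme values of SC5D, FDPS and IDI1 are mostly open circles.

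FASN, the multi-enzyme that assembles palmitate, was below 0 on 24 of 32 myeloma arrays, 16 of 21 without the wide ones, and its lowest values were split by course and by hairpin. In SKMM1 repeat 1 it was -1.06, -0.97, -1.18 and 0.28 on days 1 to 4. On the 4 arrays against shCtrl it was -1.60, -1.03, -0.91 and 0.010 on the same days. In both courses it was between -1.60 and -0.91 on days 1 to 3 and above 0 on day 4. The labels do not say whether the arrays of repeat 1 and those against shCtrl share induced RNA. SKMM1 repeat 2 gave 0.020, 0.28, -0.24 and -1.33 on days 2 to 5 and repeat 3 gave -0.17, 0.082, 0.56 and 0.036, so that the other 2 courses of the line stayed near or above 0 apart from 1 wide array on day 5. That array, with -1.33, was placed in repeat 2 but is labelled repeat 1. Against shCtrl the mean of days 2 to 4 was -0.65 (SE 0.47, limma adjusted p = 1.00), 1 course with its spread taken from the others.

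The hairpins gave different FASN values in the 2 lines that had both. With shCasp10-3, FASN was -0.69, -1.42, -1.07 and -0.14 on days 2 to 5 in H929 and -0.60, -0.74, -0.96 and -0.41 in KMS12. With shCasp10-2, H929 repeat 1 gave -0.41, -0.30, -0.63 and -0.28 on days 1 to 4, H929 repeat 2 gave -0.27, 0.12, -0.12 and -0.41 on days 2 to 5 and KMS12 gave -0.40, -0.28, 0.14 and -0.23 on days 1 to 4. On days 2 to 4 every shCasp10-3 array was below every shCasp10-2 array of its line, and on day 5 the H929 array with shCasp10-3 was above that with shCasp10-2. This separation of arrays in both lines was found in 54 of 9681 features (0.558%), for FASN alone among the 6 genes, and was looked for after the values were seen. The course means with shCasp10-3 were -1.06 and -0.77, and with shCasp10-2 they were -0.40, -0.089 and -0.12, an order that 10.7% of features shared. The hairpin difference was -0.74 (SE 0.22, unadjusted p = 0.037 in the limma fit, adjusted p = 0.98), where 1.93% of features had an unadjusted p under 0.05, and 0 features were called. Without the wide arrays it was -0.77 (SE 0.20, limma adjusted p = 0.67). KMS12 had 1 course of each hairpin and H929 1 course of shCasp10-3, so hairpin and course cannot be told apart there. CASP10 on the same days was -1.31, -0.60 and 0.025 in H929 and -0.24, -0.39 and -0.33 in KMS12 with shCasp10-3, and -3.56, -0.38 and -0.32, 0.13, -0.20 and -0.18 and -0.76, -0.51 and -0.54 in the courses with shCasp10-2; its part in the FASN values was not tested.

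**Figure D2:**
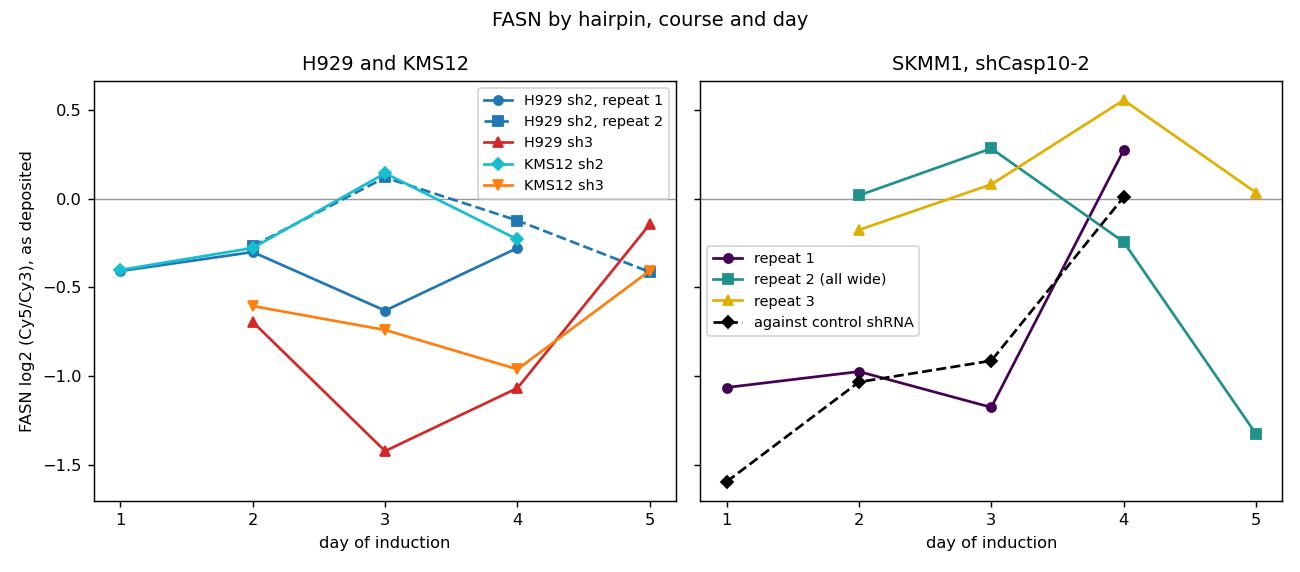
FASN log2 ratio (y axis) against the day of induction (x axis), 1 line per course, in H929 and KMS12 with both hairpins (left) and in SKMM1 (right). The SKMM1 arrays of day 5 are labelled repeats 1 and 2 but are joined to repeats 2 and 3 by their runs of database numbers. Arrays of days 1 and 5 without a repeat number are joined to a course likewise. On days 2 to 4 the shCasp10-3 lines lie below the shCasp10-2 lines of the same cells.

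SCD, the desaturase that turns saturated into monounsaturated fatty acids, stayed close to 0 in H929 and KMS12. Its mean over 6 probes lay between -0.49 and 0.49 on the 12 H929 arrays (median 0.068) and between -0.19 and 0.23 on the 8 KMS12 arrays (median 0.076). In SKMM1 repeat 1 it was 0.17, -0.079, -0.066 and 0.028 on days 1 to 4, in repeat 2 -0.92, -1.18, 0.24 and 0.054 on days 2 to 5 and in repeat 3 -0.63, -0.063, -0.91 and -0.082. The 2 lowest of these, -1.18 and -0.92, came from wide arrays of repeat 2, and repeat 3 was below 0 on days 2 to 4 and on the day 5 array placed in it. The SKMM1 mean was -0.40 (SE 0.17, limma unadjusted p = 0.061, adjusted p = 0.94), and -0.19 (SE 0.18, limma adjusted p = 0.55) without the wide arrays. The 6 probes had the same sign on only 10 of 40 arrays, with a median range between them of 0.91. Of the 6, probe 36092_1 stood apart: its r with the others over the 28 arrays that were not wide was 0.12 to 0.34, while the remaining pairs had r from 0.32 to 0.75. That probe read 2.85 on the day 4 array of OCI-Ly7 and -6.57 on day 3 of SKMM1 repeat 2, where the other 5 ran from 0.14 to 0.20 and from -0.97 to 0.68. The SCD mean on those arrays is therefore pulled by 1 probe. Probe 24279_1 read -6.09 on day 2 of SKMM1 repeat 2, where the others ran from -0.50 to 0.58.

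**Figure D3:**
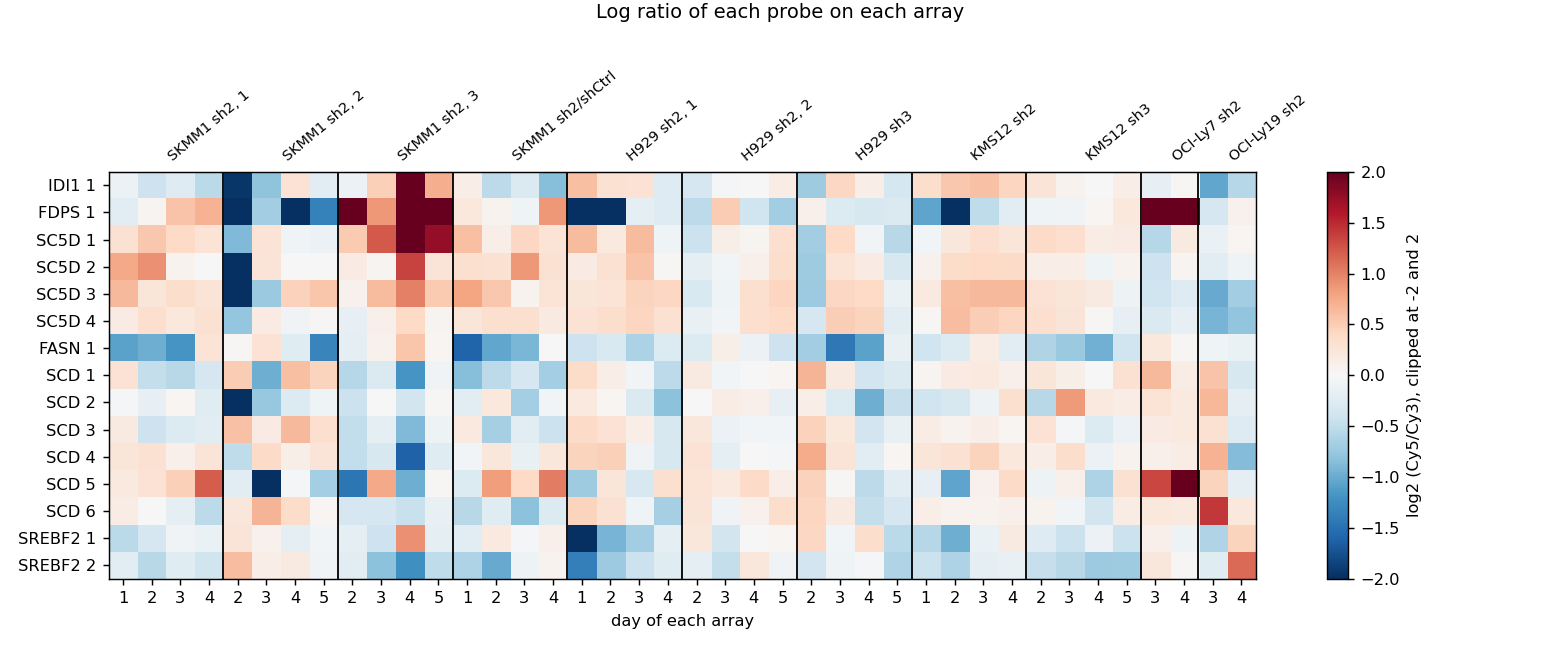
Log2 ratio of each of the 15 probes (rows, numbered within a gene in the order of their IDs) on each of the 40 arrays (columns, labelled by day and grouped by course), with colours clipped at -2 and 2. The 4 SC5D probes share their sign on 27 of 40 arrays and the 6 SCD probes on 10; FDPS saturates the scale on arrays of SKMM1 repeats 2 and 3, H929 repeat 1, KMS12 and OCI-Ly7.

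SREBF2, the gene of the sterol-responsive transcription factor, was below 0 on 25 of 32 myeloma arrays. KMS12 with shCasp10-2 gave -0.50, -0.79, -0.15 and 0.019 from day 1 to day 4, and KMS12 with shCasp10-3 gave -0.35, -0.49, -0.41 and -0.57 from day 2 to day 5. SKMM1 repeat 1 gave -0.38, -0.44, -0.15 and -0.27 from day 1 to day 4. From day 2 to day 5, SKMM1 repeat 3 gave -0.20, -0.62, -0.15 and -0.34 and repeat 2 gave 0.44, 0.11, -0.0010 and -0.068. Repeat 2 was the SKMM1 course not below 0 throughout, and its arrays were all wide. In H929, repeat 1 gave -2.16, -0.82, -0.56 and -0.21 on days 1 to 4, repeat 2 gave 0.014, -0.42, 0.11 and -0.017 on days 2 to 5 and shCasp10-3 gave 0.011, -0.073, 0.16 and -0.57. H929 repeat 1 was below 0 on every day, and the other 2 H929 courses fell on both sides. Both probes had the same sign on 30 of 40 arrays (r = 0.59 over the 28 arrays that were not wide). The line means were -0.36 in KMS12 (SE 0.24), -0.20 in H929 (SE 0.19) and -0.14 in SKMM1 (SE 0.19), and the F-test between lines in limma gave an adjusted p of 1.00. Against shCtrl it was -0.42, -0.41, -0.056 and 0.093 on days 1 to 4, near 0 on the last 2 days.

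IDI1, which isomerises isopentenyl diphosphate so that isoprenoid chains can be built, differed in direction between courses of the same line. SKMM1 repeat 1 gave -0.11, -0.41, -0.25 and -0.54 from day 1 to day 4, all below 0, and 0.13, -0.52, -0.29 and -0.85 against shCtrl, below 0 from day 2. Repeat 2 gave -1.94, -0.81, 0.28 and -0.21 on days 2 to 5 and repeat 3 gave -0.11, 0.47, 2.31 and 0.72. The highest and lowest values of the gene, 2.31 and -1.94, were both from wide SKMM1 arrays. KMS12 gave 0.35, 0.55, 0.58 and 0.43 from day 1 to day 4 of shCasp10-2 and 0.26, 0.076, -0.0050 and 0.13 from day 2 to day 5 of shCasp10-3, so above 0 on 7 of 8 arrays. In H929 the values lay between -0.72 and 0.60, with 6 arrays on each side of 0. The line means were 0.31 in KMS12 (SE 0.40), -0.11 in SKMM1 (SE 0.33) and -0.022 in H929 (SE 0.33), none called by limma. Against shCtrl the mean of days 2 to 4 was -0.56 (SE 0.57). In the fit of single arrays without a block for the course this passed (limma adjusted p = 0.033, 19.1% of features called), and with the course as a random block it did not (adjusted p = 0.12).

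FDPS, which joins isoprenoid units to farnesyl diphosphate, had the widest values of the set from a single probe. SKMM1 repeat 2 gave -6.94, -0.70, -2.35 and -1.35 from day 2 to day 5, repeat 3 gave 2.29, 0.87, 4.04 and 2.12 over the same days, and repeat 1 gave -0.21, 0.058, 0.57 and 0.70 from day 1 to day 4. In H929 repeat 1 it was -7.21, -6.26, -0.18 and -0.26 on days 1 to 4, and in KMS12 with shCasp10-2 it was -1.06, -2.42, -0.51 and -0.23. Within each of these 2 courses the size fell from the wide arrays of days 1 and 2 to the arrays that were not wide. On the other H929 and KMS12 arrays it lay between -0.70 and 0.52. It was below -2 on 5 arrays, all wide with a median below 0, and above 2 on 5 arrays, 2 of them wide, all with a median above 0. On the 10 arrays whose median was below -0.2 it was below 0 on 9, and on the 3 with a median above 0.2 it was above 0 on 3. On the other 27 arrays its sign was that of the array median on 19. The mean over 10 T and NK cell markers, genes that myeloma cells should lack, lay on the same side of 0 as the FDPS course mean in 7 of all 11 courses and on the other side in 4, SKMM1 repeat 1 (-0.30 for the markers), H929 repeat 2 (0.072), SKMM1 against shCtrl (-0.38) and OCI-Ly19 (0.13). It ran from -1.42 in the KMS12 course with shCasp10-2 and -1.39 in SKMM1 repeat 2 to 0.56 in SKMM1 repeat 3, and it was 1.90 in OCI-Ly7. The mean over 5 of 8 myeloid markers, the measured ones, was -1.84 in SKMM1 repeat 2 and 0.79 in repeat 3. What these markers have to do with the FDPS values was not tested. Without wide arrays the SKMM1 mean was 0.94 (SE 0.27, limma adjusted p = 0.032) in the fit with the course as a random block, against 16.2% of features called; without repeat 3 it was 0.44 (adjusted p = 0.35), without repeat 1 it was 1.58 (adjusted p = 0.0039) and without the KMS12 course of shCasp10-3 the adjusted p was 0.054. Over all arrays the SKMM1 mean was -0.16 (SE 1.04, limma adjusted p = 0.99).

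**Figure D4:**
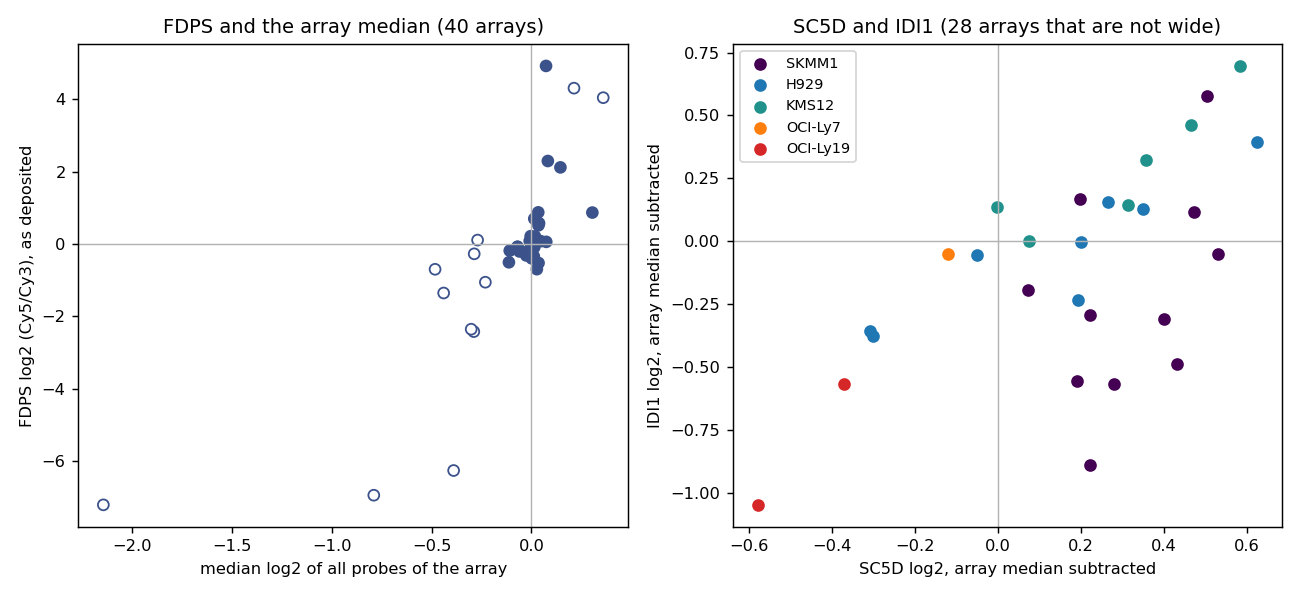
Left, FDPS log2 ratio of each of the 40 arrays (y axis) against the median log2 ratio of all probes of that array (x axis), with wide arrays as open circles. Right, IDI1 (y axis) against SC5D (x axis) on the 28 arrays that were not wide, after subtraction of the array median, coloured by line; the SKMM1 points spread to low IDI1 while SC5D stays above 0.

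SC5D, the sterol desaturase of a late step of cholesterol synthesis, was above 0 on 17 of the 21 myeloma arrays that were not wide and on 25 of all 32. In SKMM1 repeat 1 it was 0.47, 0.51, 0.26 and 0.20 on days 1 to 4, and against shCtrl it was 0.49, 0.33, 0.41 and 0.26 on the same days. These 8 arrays were all above 0. SKMM1 repeat 2 gave -3.80, -0.013, 0.085 and 0.12 on days 2 to 5 and repeat 3 gave 0.15, 0.50, 2.33 and 0.65. The value of -3.80 came from probes 27017_1 and 27608_1 at -8.38 and -5.16, with the remaining 2 at -0.88 and -0.78, and the value of 2.33 from probe 17802_1 at 6.58, with the others between 0.39 and 1.36. KMS12 gave 0.061, 0.45, 0.47 and 0.43 from day 1 to day 4 of shCasp10-2 and 0.29, 0.24, 0.069 and -0.0065 from day 2 to day 5 of shCasp10-3. H929 repeat 1 gave 0.33, 0.28, 0.52 and 0.17 from day 1 to day 4. From day 2 to day 5, H929 repeat 2 gave -0.27, -0.017, 0.20 and 0.38 and the H929 course of shCasp10-3 gave -0.62, 0.40, 0.24 and -0.31. H929 repeat 2 and the shCasp10-3 course thus started below 0 on day 2. The 4 probes had the same sign on 27 of 40 arrays, and probes 27608_1 and 27620_1 agreed best (r = 0.87 over the 28 arrays that were not wide), with r from 0.23 to 0.62 for the other pairs. With the fit of single arrays and the course as a random block, leaving out SKMM1 repeat 1, either course of KMS12, H929 with shCasp10-3 or H929 repeat 1 ended the call of SC5D (0.23 to 0.31, adjusted p from 0.051 to 0.14). It was 0.31 (adjusted p = 0.018) without H929 repeat 2 and 0.26 (adjusted p = 0.033) without SKMM1 repeat 3.

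SC5D and IDI1 went together more than any other pair of the 6 genes. Over the 28 arrays that were not wide, each centred on its median, Pearson's r was 0.61, and over all 40 it was 0.80; arrays of a course share cells and arrays share their normalisation, so this is a description. The other 14 pairs had r between -0.35 and 0.27 on the 28 arrays. The signs of the deposited values were the same on 26 of 40 arrays, namely 11 of the 12 wide and 15 of the 28 others. The pair parted in SKMM1 repeat 1 and against shCtrl, where SC5D was above 0 on all 8 arrays and IDI1 below 0 on 7.

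The lymphoma lines, which served as controls, showed SC5D on the other side of 0. It was -0.42 and -0.047 on days 3 and 4 in OCI-Ly7 and -0.57 and -0.38 in OCI-Ly19. All 8 myeloma courses, with means of days 3 and 4 from 0.036 to 1.42, lay above both lymphoma courses, at -0.23 and -0.47, as did 2.42% of features. This held with each array centred on its median (3.75% of features) and with the wide arrays left out, over 7 courses (4.56%). The direction of SKMM1 repeats 2 and 3 is in doubt, as described above: with the sign of repeat 2 turned the order held (2.78% of features), and with the sign of repeat 3 turned that course went to -1.42, below both lymphoma courses, and the order was lost. The difference of myeloma minus lymphoma was 0.73 (SE 0.37, limma unadjusted p = 0.090, adjusted p = 0.64); without the wide arrays it was 0.56 (SE 0.21, adjusted p = 0.47), and limma called 0 features in either (over all arrays 654 had an unadjusted p under 0.05). The fit of single arrays without a block for the course called it at 0.61 (SE 0.16, limma adjusted p = 0.047, 3.86% of features called), and with a random block it was not called (adjusted p = 0.19).

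SCD and SREBF2 lay the other way. SCD was 0.45 and 0.62 in OCI-Ly7 and 0.68 and -0.27 in OCI-Ly19 on days 3 and 4, and the course means of 0.54 and 0.21 lay above all 8 myeloma courses, which ran from -0.48 to 0.17, an order in 5.74% of features. As described above, probe 36092_1 alone pulled the SCD values of OCI-Ly7 on day 4 and of SKMM1 repeat 2 on day 3. The order without that probe was not tested. SREBF2 was 0.17 and -0.043 and -0.42 and 0.79, and its course means of 0.061 and 0.19 also lay above all 8 myeloma courses, though the closest of those was 0.055. With each array centred on its median, or centred with the wide arrays left out, the groups overlapped for both genes, and with the wide arrays left out alone SCD stayed apart (5.31% of features) and SREBF2 did not. OCI-Ly7 was then its day 4 array alone, on which the SCD mean was pulled by that probe. With the sign of SKMM1 repeat 2 or repeat 3 turned, SCD of that course was 0.47 or 0.48, above OCI-Ly19, and the order was lost. SREBF2 kept it with repeat 2 turned (3.31% of features) and lost it with repeat 3 turned. The differences of myeloma minus lymphoma were -0.50 for SCD (SE 0.24, limma adjusted p = 0.64) and -0.33 for SREBF2 (SE 0.25, limma adjusted p = 0.66). Over all features the median difference was -0.37, and 28.6% were above 0, so SREBF2 lay above that median and SCD below it. FDPS was 4.30 and 4.92 in OCI-Ly7 and -0.34 and 0.082 in OCI-Ly19, IDI1 was -0.17 and 0.021 and -1.04 and -0.57, and FASN was 0.21 and 0.026 and -0.093 and -0.14. FASN stayed within 0.21 of 0 in both lines, and IDI1 was lowest in OCI-Ly19. OCI-Ly7 had CASP10 above 0, so its arrays go against the label of a knockdown; without it, the lymphoma group is OCI-Ly19 alone.

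**Figure D5:**
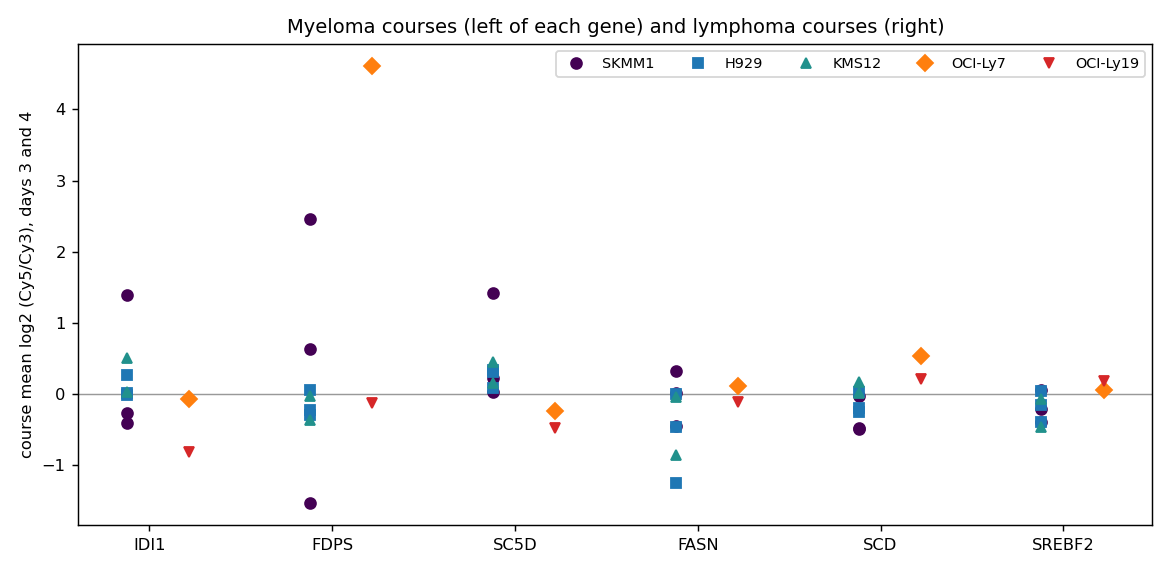
Course mean log2 ratio over days 3 and 4 (y axis) of the 6 genes, with the 8 myeloma courses on the left of each gene and the 2 lymphoma courses on the right. Both lymphoma points lie below all myeloma points for SC5D and above them for SCD and SREBF2, in the deposited direction of SKMM1 repeats 2 and 3; with the sign of repeat 3 turned, none of these orders holds.

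None of the genes had a slope over days 2 to 4 that passed. The slopes, in log2 per day over the 8 myeloma courses, were 0.90 for FDPS (SE 0.42), 0.37 for SC5D (SE 0.23), 0.25 for IDI1 (SE 0.18), 0.099 for SREBF2 (SE 0.099), 0.058 for FASN (SE 0.11) and -0.032 for SCD (SE 0.12). The limma adjusted p was 0.40 for FDPS and 0.42 or more for the others, with 0 features called and 11.0% of features at an unadjusted p under 0.05. The median slope over all features was 0.25, and 78.3% were above 0, so the slope of IDI1 was that of the typical feature. FDPS had the widest slope. From day 2 to day 4 the share of probes below -3 fell from 25.0% to 0.18% in H929 repeat 1 and from 30.5% to 10.2% in SKMM1 repeat 2. The share above 3 rose from 5.5% to 14.3% in SKMM1 repeat 3. What these shares have to do with the slopes was not tested.

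Genes of the pathways were counted from fixed lists that include members of this set. None of the listed genes was called by limma in the myeloma response over all arrays, in either direction. The counts and medians of these lists are therefore not separate from the values of the members. Of 23 sterol synthesis genes listed, 9 were measured, 4 above 0 and 5 below, with a median of -0.031. Of 25 fatty acid synthesis genes, 6 were measured, 1 above and 5 below (median -0.15), and of 13 regulators of SREBP and LXR, 6 were measured, 1 above and 5 below (median -0.18). The median over all features was -0.27, with 18.7% above 0, and without the wide arrays it was 0.017, with 53.1% above 0. Without the wide arrays the list medians were 0.068, -0.12 and -0.13, with 6 of 9, 1 of 6 and 2 of 6 genes above 0. For the lists of uptake, storage and export (7 of 17 measured), isoprenoid users (3 of 12) and fatty acid oxidation (3 of 18), the medians over all arrays were -0.13, -0.055 and 0.089. Of the first 3 lists, with 9, 6 and 6 genes measured, TM7SF2, a reductase of the sterol ring late in cholesterol synthesis, had an unadjusted p under 0.05. Over all features 4.82% (467) had such a p in the same limma fit, so 1 gene in lists of this size is near that share.

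In KMS12, TM7SF2 was -0.70, -0.41, -0.43 and -0.53 from day 1 to day 4 of shCasp10-2 and -0.36, -0.72, -0.44 and -0.41 from day 2 to day 5 of shCasp10-3. H929 repeat 1 gave -1.01, -0.53, -0.63 and -0.76 from day 1 to day 4. From day 2 to day 5, H929 repeat 2 gave 0.081, -0.15, -0.39 and -0.010 and the H929 course of shCasp10-3 gave -0.032, -0.37, -0.50 and -0.57. SKMM1 gave 0.57, -0.70, -0.62 and -0.89 in repeat 1 and -1.59, -0.62, -1.52 and -1.06 against shCtrl, both from day 1 to day 4. SKMM1 repeats 2 and 3 gave -3.24, -0.13, -0.23 and -0.67 and 0.038, -0.068, 0.036 and 0.091 from day 2 to day 5. It was below 0 on all 8 KMS12 arrays and on all 4 against shCtrl, and near 0 in SKMM1 repeat 3. The myeloma mean was -0.50 (SE 0.16, limma unadjusted p = 0.018, adjusted p = 0.68), with 7 of 8 courses below 0, as in 12.8% of features. In the fit of single arrays without wide arrays and with the course as a random block it fell by 0.44 (SE 0.096, limma adjusted p = 0.019), where 5.13% of features were called. That call ended without SKMM1 repeat 1, without H929 repeat 1 or without either course of KMS12 (adjusted p from 0.064 to 0.15; -0.30 without SKMM1 repeat 1). On 25 of the 40 arrays TM7SF2 was below 0 while SC5D, which acts later in the same pathway, was above 0. Taken singly, TM7SF2 was below 0 on 34 of the 40 and SC5D above 0 on 29. The joint count is close to what these 2 counts would give if the genes were unrelated. INSIG1, which holds SREBP in the endoplasmic reticulum and is itself an SREBP target, was above 0 on all 8 KMS12 arrays (0.15 to 0.62) and below 0 on 11 of 12 H929 arrays (-2.98 to 0.26). On the 4 arrays against shCtrl it ran from -1.51 to -0.48. The line means were -0.57 in H929 (SE 0.23, limma adjusted p = 0.98) and -1.01 against shCtrl (SE 0.39, limma adjusted p = 1.00), and H929 minus KMS12 was -0.89 (SE 0.36, limma adjusted p = 1.00). The lowest H929 value, -2.98, was a wide array, day 2 of the shCasp10-3 course. Without the wide arrays the H929 mean was -0.31 (SE 0.16, limma adjusted p = 0.84) and H929 minus KMS12 was -0.60 (SE 0.26, limma adjusted p = 1.00). In single arrays with the course as a random block INSIG1 against shCtrl passed (limma adjusted p = 0.015, 8.07% of features called), 1 course with its spread taken from the others.

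The named genes whose centred log ratio was most like that of each member, over the 28 arrays that were not wide and among 4604 named genes, were AIDA (r = 0.85) and TMEM167A (0.84) for SC5D and TMX3 (0.85) and RECQL (0.84) for IDI1. For SREBF2 they were PRDM1 (0.76) and CC2D1B (0.72), for FASN ARHGEF1 (0.71) and ZDHHC3 (0.68), and for SCD PHF8 (0.70) and MMP17 (0.69). For FDPS they were ROR1 (0.92) and TFAP2B (0.91). No member was among the 2 most like another member.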

How the data were processed

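The authors deposited processed log ratios of 15246 probes on each array, 0 of them missing. These deposited values were taken here as log2 of Cy5 over Cy3, an assumption: the dyes are per the labels, while for base, direction, background correction and normalisation nothing is given in the sources used here. Signal over background is unknown, and the dyes were never swapped, so a dye bias enters each value against 0 and cancels only in differences between arrays. The number of arrays limits the precision.

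Probes were named through the platform annotation (10169 with 1 symbol, 4 with several, 5073 not listed; 10128 matched RefSeq by Entrez identifier), and probes of a gene were averaged, which gave 9681 features. The mean of days 2 to 4 of each course (days 3 and 4 where lymphoma entered) was fitted by limma 3.58.1 under R 4.3.3, with Benjamini-Hochberg adjustment at 0.05. No filter was applied. Days 1 and 5 are shown and enter only the alternative of all days; day 5 of SKMM1 (labelled repeats 1 and 2) was placed in repeats 2 and 3, and unnumbered arrays were placed likewise, by runs of database numbers. In the fits of course means, p-values measure the spread between courses, which may be technical where separate cultures are not stated. In the fits of single arrays, the spread between days of a course enters as well. Without a block, those fits treat the days of a course as separate replicates. The set's members, the gene lists and the tests were chosen with earlier results of these data known. All members were named. Genes of the sterol, fatty acid and regulator lists were named if their unadjusted p was under 0.05 in the myeloma response or they passed in any setting, and INSIG1 in any case. The fit was tested on simulated data. Alternatives were centring, scaling, leaving out wide arrays, single arrays with and without the course as a block, turned signs, the median of probes, all days, and each course left out. SKMM1 and H929 share repeat numbers 1 and 2, for which the labels state no shared batch, and same-numbered deviations correlated at -0.60.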

Additional observations from a re-analysis of the deposited data

Results flagged for a closer look

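SC5D in SKMM1 repeat 2 was far from the other courses: its mean over days 2 to 4 was -1.24, the nearest of the other 7 myeloma courses was -0.027, and the gap was 0.543 of the whole range, where 0.526 is the critical value for 8 courses. About 1 in 20 such groups passes by chance. The value rests on day 2, a wide array on which 2 of the 4 SC5D probes read -8.38 and -5.16.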

How the results depend on the processing

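Over all arrays limma called 0 features in each of the 13 comparisons, the 3 pairs of lines included. Calls under the alternatives were these. With single arrays, no wide arrays and the course as a random block, the calls were 497 in the myeloma response, 1571 in SKMM1, 1 in KMS12, 3 between lines, 781 against shCtrl, 1 in lymphoma, 1 for myeloma minus lymphoma and 470 for SKMM1 minus KMS12. With no block for the course they were 1365, 2909, 45, 621, 1845, 1206, 374 and 1591 in the same order, 39 for SKMM1 minus H929 and 1 in H929. Lymphoma had 1 with the sign of SKMM1 repeat 3 turned; without OCI-Ly19 there were 91 in lymphoma and 82 for myeloma minus lymphoma. With the random block, leaving out a course, an alternative chosen after seeing the data, gave 24 (KMS12 with shCasp10-3), 47 (KMS12 with shCasp10-2), 55 and 604 (H929 repeats 1 and 2), 257 (H929 with shCasp10-3), 747 and 871 (SKMM1 repeats 1 and 3) in the myeloma response.

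FASN and SREBF2 stayed below 0 in the myeloma response under every alternative run. In single arrays without a block for the course both passed, at -0.42 and -0.25, and SC5D passed at 0.25. That fit called 14.1% of all features and treats the days of a course as separate replicates. FDPS reversed to 0.19 without the wide arrays, 0.18 with the others also centred, 0.19 and 0.18 in single arrays with and without the block, 0.22 with SKMM1 repeat 2 turned and 0.010 without that repeat; with single courses left out it ran from -0.94 (SKMM1 repeat 3) to that value. With repeat 3 turned, SC5D was -0.072, IDI1 -0.14 and SCD 0.0041; SCD was also 0.023 with repeat 2 turned and 0.0064 with scaled arrays. SC5D ran from -0.012 without SKMM1 repeat 3 to 0.36 without repeat 2. Without SKMM1 repeat 3, IDI1 was -0.11, and without KMS12 with shCasp10-2 IDI1 was -0.0084. With the random block and each course left out, FDPS was 0.019, 0.12, 0.17, 0.19, 0.19, 0.23 and 0.40, and IDI1 fell to -0.018 without KMS12 with shCasp10-2 and -0.048 without SKMM1 repeat 3. The cause was not tested.

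With the repeat number as a block, SKMM1 minus H929 over repeats 1 and 2 had 0 calls with the replicate block and 0 without (1 and 3 features at an unadjusted p under 0.05). With crossed numbers, chosen after seeing the data, it had 0 calls and 47 at an unadjusted p under 0.05.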
